A study of Mus musculus with 15 samples.

Results

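The receptors described here are those that guide macrophages along gradients of chemokines and other chemoattractants. They were chosen by name from a list of 8 genes, Ccr1, Ccr2, Ccrl2, Cx3cr1, Cxcr4, Cmklr1, C5ar1 and Ptafr, and 6 of them have a row among the 561 genes counted. Ccr1, a receptor for Ccl3 and Ccl5, and C5ar1, the receptor for the complement fragment C5a, were not analysed here. Of the 6 receptor genes with counts, 2 (Ccrl2 and Ptafr) had a mean of at least 20 counts and were tested, as were 269 of the 561 genes. The other 4, Ccr2, Cx3cr1, Cxcr4 and Cmklr1, are given by their counts.

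The nanoString nCounter Mouse Immunology panel was used, an assay in which every mRNA is captured by a labelled probe pair and the labels are counted one by one, with no amplification step. The cells were RAW macrophages, an established mouse line. All of them received lipopolysaccharide (LPS), a bacterial stimulus, together with plasma extracellular vesicles (EVs) from young adult female C57BL/6J mice, for 1 day. The 15 samples form 5 groups of 3. The sham EVs came from mice that were not irradiated. The other groups received WBIR-EVs, taken 3 or 7 days after whole-body ionizing radiation (WBIR) of the mice with a dose of 2 or 9 Gy. No group without EVs and no group without LPS was analysed here, so every value is that of LPS-treated cells. The comparisons ask whether the dose given to the mice, and the time after it, changed how the macrophages expressed these receptors.

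Most of these receptors are G protein-coupled receptors with 7 membrane-spanning helices, in which binding of a ligand outside the cell releases G proteins inside it and steers movement. A few members of the family, called atypical, bind a ligand without starting that signal and instead hold or remove it. On monocytes and macrophages, Ccr2 is known for the response to Ccl2, Cx3cr1 for the response to fractalkine (Cx3cl1), Cxcr4 for the response to Cxcl12, and Cmklr1 for the response to chemerin. Ccrl2 is an atypical receptor that binds chemerin and can present it to cells bearing Cmklr1. Ptafr responds to platelet-activating factor, a lipid.

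Because Ccrl2 and Ptafr carried nearly all of the receptor counts, the stretch of the genome before their transcription start is shown, from RefSeq on build GRCm38.p6, each over 250 bases and read 5′ to 3′ along the gene. The Ccrl2 stretch lies at chr9:111057519-111057768 on the minus strand, before the first of 3 annotated starts, and the Ptafr stretch at chr4:132563817-132564066 on the plus strand. Capitals mark matches to the motifs searched.
Ccrl2: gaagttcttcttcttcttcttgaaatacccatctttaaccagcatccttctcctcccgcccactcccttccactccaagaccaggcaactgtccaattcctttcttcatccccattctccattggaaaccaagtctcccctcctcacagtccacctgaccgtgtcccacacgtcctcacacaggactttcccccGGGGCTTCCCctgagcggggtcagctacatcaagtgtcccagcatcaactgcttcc
Ptafr: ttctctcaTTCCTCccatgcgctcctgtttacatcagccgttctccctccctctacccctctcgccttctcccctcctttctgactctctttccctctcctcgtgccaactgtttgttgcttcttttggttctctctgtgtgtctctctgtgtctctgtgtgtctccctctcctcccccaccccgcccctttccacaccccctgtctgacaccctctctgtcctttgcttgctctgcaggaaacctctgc

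On both strands, 4 motifs were searched in windows reaching 50 bases past the start: the kappaB motif bound by NF-κB, the PU.1 core GAGGAA, the AP-1 motif TGANTCA and a paired interferon-response motif (GAAA, any 2 bases, GAAA). The marked matches did not overlap. The Ccrl2 window held 1 kappaB match that begins 56 bases before the start (position -56), and 4.51% of 32851 mouse promoters of that length held at least 1. The Ptafr window held 1 PU.1 core, on the opposite strand at position -242, and 28.3% of promoters held it. AP-1 (in 7.81% of promoters) and the paired interferon-response motif (in 3.44%) had no match in either window. The windows at the other annotated starts of Ccrl2 held none of the 4, and of the 4 receptor genes at low counts only Cmklr1 held a match, a PU.1 core at position -98. A match is a description of the letters and not a measured site.

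Total counts per sample lay between 453178 and 837995 outside the 9 Gy day 3 group and between 43176 and 87899 within it. The geometric mean of the 14 housekeeping genes fell with the totals, from 448 to 872 elsewhere to between 69.2 and 124 in that group. Counts were divided by this mean (normalized counts). The methods give a set amount of RNA for every hybridization, so the total counts do not measure cell number or RNA per cell. What lowered them at 9 Gy day 3 was not tested. In the 9 Gy day 3 group, the titles of replicates 1 and 2 give day 3 but their dose and day entry gives day 7. Both were kept at day 3, and values without them are given below. The cells carried 11 macrophage markers with counts, all of them at a mean of at least 20. Genes of T, B and NK cells, which a macrophage line would not be thought to express, served as a view of the low end of the counts. Their 24 genes had a median of 10.2 raw counts in the sham group and 1.17 in the 9 Gy day 3 group.

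Ccrl2 came first, then Ptafr and then Cx3cr1 in the sham and both 2 Gy groups, and Ptafr came before Ccrl2 in both 9 Gy groups. Probes can differ in efficiency, so this order describes counts and not numbers of mRNA molecules. Over the 15 samples the mean raw count was 251 for Ccrl2 and 210 for Ptafr. It was 18.9 for Cx3cr1, 10.2 for Cxcr4, 5.87 for Cmklr1 and 5.33 for Ccr2. None of the 24 lymphocyte genes reached Ccrl2 or Ptafr in any group.

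**Figure D1:**
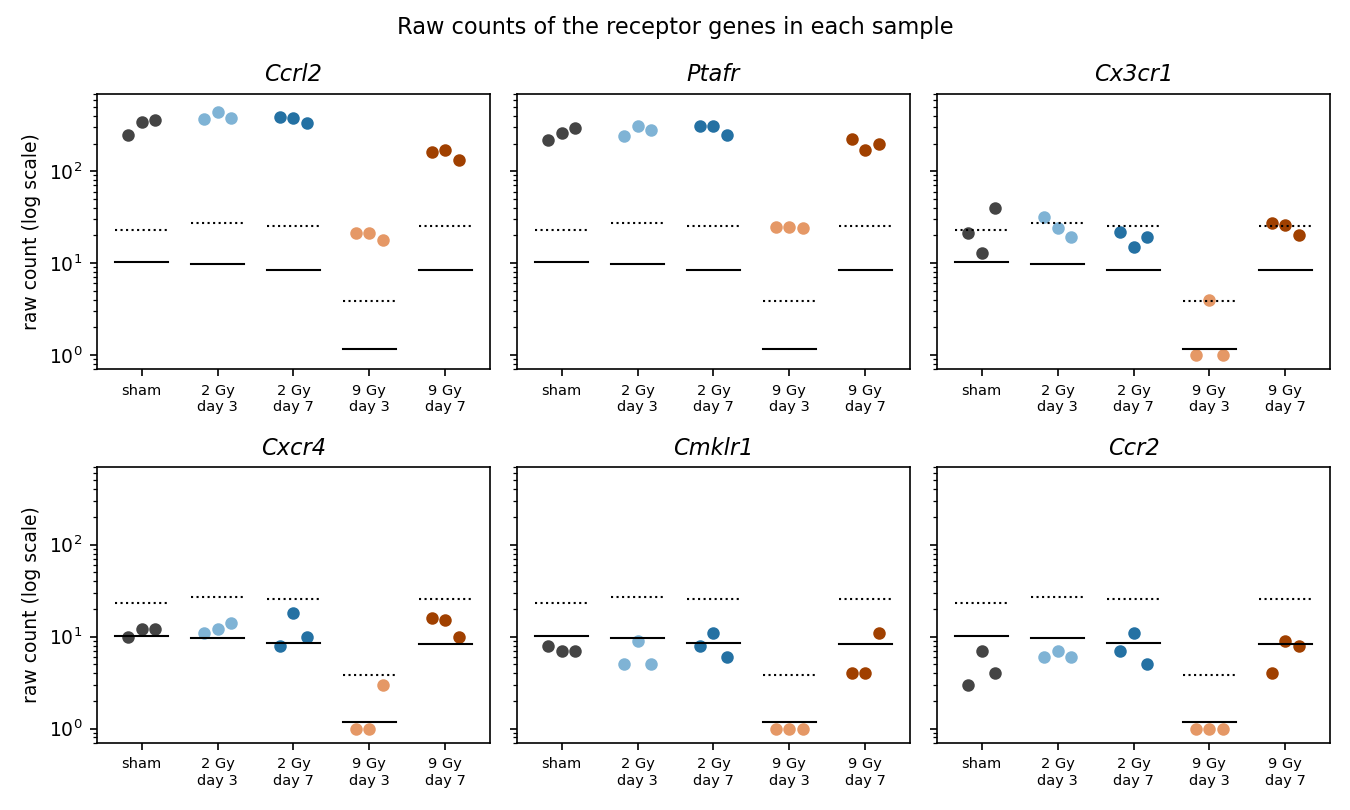
Raw counts on a log axis of the 6 receptor genes in each of the 15 samples by EV group, with the median (solid line) and the 90th percentile (dotted line) of the 24 lymphocyte genes in that group. Ccrl2 and Ptafr lay above both lines in every sample, Cx3cr1 near the upper line outside the 9 Gy day 3 group, and Cxcr4 on both sides of the median line with its group means above it, whereas the group means of Cmklr1 and Ccr2 lay below it.

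Ccrl2, the atypical chemerin receptor, was lower in macrophages given 9 Gy EVs than in those given sham EVs at both days, at 0.342 of the sham level with day 3 EVs and 0.302 with day 7 EVs. In the 3 sham samples its raw counts were 246, 342 and 359. They were 21, 21 and 18 at 9 Gy day 3, as against 160, 171 and 132 at 9 Gy day 7. After normalization the level was 309 ± 31.9 in the sham group, 110 ± 40.3 in the 9 Gy day 3 group and 93.5 ± 15.9 in the 9 Gy day 7 group (mean ± SD, n = 3 each). Every 9 Gy sample was below every sham sample, and the highest 9 Gy sample, replicate 1 of day 3 at 153, was well under the lowest sham sample at 273. Of all tested genes, 43.9% were likewise below every sham sample at day 3 and 49.1% at day 7. By edgeR's quasi-likelihood test after Benjamini-Hochberg adjustment, the log2 fold change was -1.55 ± 0.22 (SE, adjusted p = 6.21e-05) at day 3 and -1.73 ± 0.19 (adjusted p = 5.43e-06) at day 7.

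Relative to the housekeeping genes, lower expression was common with 9 Gy EVs. At day 3, 52.4% of the tested genes passed the same test and 41.3% did so as lower. At day 7 these shares were 61% and 49.1%. The median log2 fold change of all tested genes was -0.46 at day 3 and -0.45 at day 7. The excess of lower genes depended on the scaling. In the day 3 comparison 111 genes were lower and 30 higher when scaled to the housekeeping genes, 60 and 59 under TMM (a scaling by a trimmed mean over genes), 55 and 63 when scaled to the median gene, and 33 and 121 when scaled to total counts. At day 7 housekeeping scaling gave 132 and 32, TMM 76 and 75, median-gene scaling 73 and 78, and total counts 31 and 143. With only the 10 housekeeping genes at a mean of at least 100 counts, the split was 93 and 40 at day 3. It was 110 and 48 at day 7, and the medians were -0.27 and -0.25. Ccrl2 fell by more than most. Only 38 of the 269 tested genes had a lower log2 fold change at day 3 and only 27 at day 7. Relative to the median gene its difference was -1.09 at day 3 and -1.28 at day 7.

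The spread of Ccrl2 within the 9 Gy day 3 group followed the scaling. Its raw counts differed by at most 3 between the samples, while the normalized counts were 153, 103 and 73.0 for replicates 1, 2 and 3. The sample whose labels both give day 3 had the lowest of these. With the conflicting samples left out, the log2 fold change at day 3 was -2.08 (adjusted p = 0.000332 by edgeR's quasi-likelihood test after Benjamini-Hochberg adjustment), resting on 1 sample assumed to vary like the other groups. In that fit 70 of 278 tested genes were lower and 9 higher.

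Ptafr, the receptor for platelet-activating factor, was also lower with 9 Gy EVs, by a smaller step. Its raw counts were 217, 258 and 298 in the sham samples, 25, 25 and 24 in the 9 Gy day 3 group, and 224, 172 and 200 in the 9 Gy day 7 group. Raw counts of the day 7 samples thus overlapped those of the sham samples, and the separation came with the housekeeping scaling, since their housekeeping mean was 801 to 872 against 454 to 545 in the sham samples. After normalization Ptafr was at 253 ± 19.3 in the sham group, 134 ± 43.4 in the 9 Gy day 3 group and 120 ± 14.0 in the 9 Gy day 7 group (mean ± SD, n = 3 each), with every 9 Gy sample below every sham sample, as for 43.9% of tested genes at day 3 and 49.1% at day 7. The log2 fold change was -0.96 ± 0.19 (SE) at day 3 and -1.08 ± 0.17 at day 7, with adjusted p = 0.000835 and 8.65e-05 by edgeR's quasi-likelihood test after Benjamini-Hochberg adjustment. Ptafr lay nearer to the bulk of the panel than Ccrl2, with 80 of the 269 tested genes lower at day 3 and 71 at day 7. Without the conflicting samples it was at -1.38 at day 3.

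**Figure D2:**
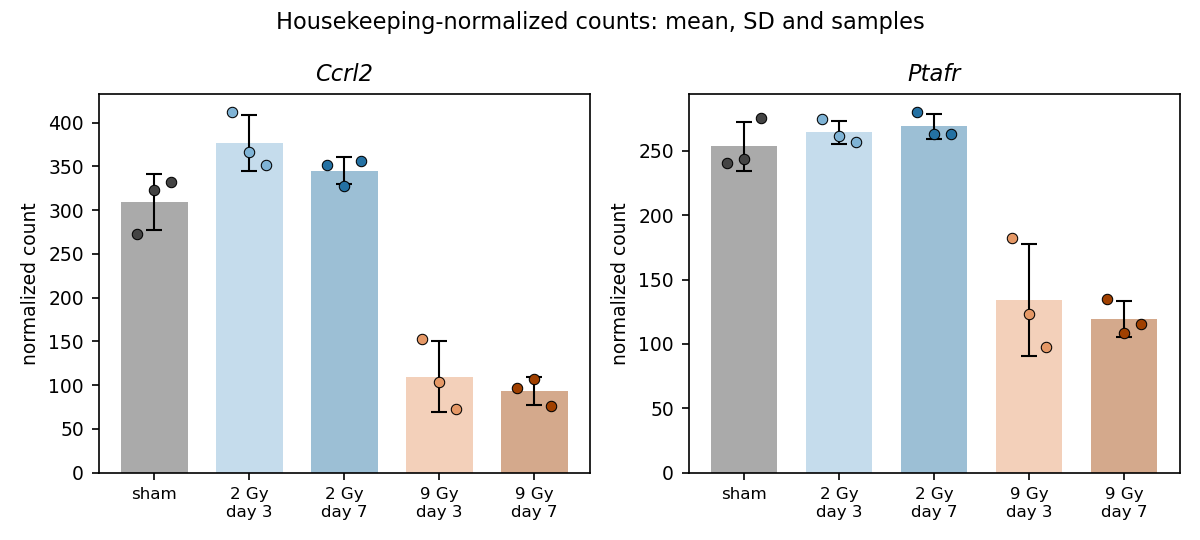
Normalized counts (raw counts divided by each sample's housekeeping mean, relative to its average) of Ccrl2 and Ptafr in the 5 EV groups. Bars give the mean of 3 samples, error bars the SD and points the samples, and all 6 samples given 9 Gy EVs lie below all 9 others for both genes.

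The comparison of the doses used the same 6 samples given 9 Gy EVs, so it is not independent of the comparisons with sham EVs. Ccrl2 ranged from 73.0 to 153 normalized counts in the 6 samples given 9 Gy EVs and from 327 to 412 in the 6 given 2 Gy EVs. Its log2 fold change was -1.86 ± 0.15 (SE, adjusted p = 9.49e-08 by edgeR's quasi-likelihood test after Benjamini-Hochberg adjustment), with both days averaged. Ptafr ranged from 97.3 to 182 against 257 to 280, a log2 fold change of -1.09 ± 0.13 (adjusted p = 3.85e-06 by the same edgeR test). Neither gene's dose groups overlapped, and 36.1% of the tested genes were likewise lower in all 9 Gy samples. In this comparison 67.7% of the tested genes passed, 52% as lower, and the median was -0.45. The split of 140 lower and 42 higher genes was 80 and 89 under TMM, 78 and 90 when scaled to the median gene, and 36 and 168 when scaled to total counts, where the median was 0.69. Ccrl2 was at -2.12 and Ptafr at -1.30 when the conflicting samples were left out.

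With 2 Gy EVs, neither gene passed the test. Ccrl2 had raw counts of 367, 438 and 383 at day 3 and 387, 382 and 338 at day 7. All 3 day 3 samples were above all 3 sham samples after normalization (377 ± 31.9 against 309 ± 31.9, SD), which 4.83% of tested genes also showed. The log2 fold change was 0.28, with a 95% interval from -0.11 to 0.68 (adjusted p = 0.998 by edgeR's quasi-likelihood test after Benjamini-Hochberg adjustment). At day 7 it was 0.16, with an interval from -0.24 to 0.55, and the samples overlapped the sham samples. Ptafr had raw counts of 244, 313 and 280 at day 3 and 309, 307 and 250 at day 7, and its log2 fold change was 0.060 (interval from -0.29 to 0.41) at day 3 and 0.086 (from -0.26 to 0.44) at day 7. In both comparisons edgeR called 0% of the genes, DESeq2 called 0, and 7 genes at day 3 and 1 at day 7 had an unadjusted p under 0.05.

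The day after WBIR made no difference that the test could detect. With 9 Gy EVs, the change from day 3 to day 7 was -0.18 for Ccrl2 (95% interval from -0.66 to 0.31) and -0.12 for Ptafr (from -0.53 to 0.29) on the log2 scale. With 2 Gy EVs it was -0.13 for Ccrl2 (from -0.52 to 0.27) and 0.025 for Ptafr (from -0.32 to 0.37). The difference of these changes between doses, tested as an interaction, was -0.050 for Ccrl2 (from -0.67 to 0.57) and -0.15 for Ptafr (from -0.69 to 0.39). Among all tested genes, 0% passed in each of these 3 comparisons by edgeR and 0 by DESeq2, and 6, 4 and 4 genes had an unadjusted p under 0.05. With the replicate number as a block and only the compared groups in the fit, 3 genes were lower and 24 higher at 2 Gy day 7 than at day 3, out of 270, and 0 passed for 9 Gy. Neither receptor was among them. With counts under 20 set to 20, 87 genes were lower and 0 higher at 9 Gy day 7 than at day 3, and 73 and 0 in the interaction, again without either receptor. That floor raised 96 to 137 of the 269 tested genes in each 9 Gy day 3 sample but 6 to 11 in each 9 Gy day 7 sample. The sign of the 9 Gy change between days turned when the conflicting samples were left out, to 0.36 for Ccrl2 and 0.30 for Ptafr, again without passing the test.

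The size of the 9 Gy differences depended on what the samples were scaled to. Scaled to the median of the tested genes, Ccrl2 was at -1.03, -1.20 and -1.38 for 9 Gy day 3 against sham, 9 Gy day 7 against sham and 9 Gy against 2 Gy on the log2 scale, and all 3 passed edgeR's test. Under TMM, Ccrl2 was at -1.08, -1.24 and -1.40, and all 3 passed. Scaled to total counts it was at -0.52 (adjusted p = 0.126 by edgeR's quasi-likelihood test after Benjamini-Hochberg adjustment), -0.60 and -0.71, and the latter 2 passed. Ccrl2 was thus lower with 9 Gy EVs under each of these scalings, though not always past the threshold. For Ptafr the direction itself depended on the scaling. It was at -0.44, -0.55 and -0.61 when scaled to the median gene, where day 3 did not pass (adjusted p = 0.0833 by the same edgeR test), and at 0.068, 0.031 and 0.049 when scaled to total counts, where none passed. Total counts were weighted by a few genes, since Ccl3, Ccl5, Ccl9, Gapdh and Ptgs2 made up 58.2% to 61.7% of the counts in the sham and 2 Gy samples and 43.5% to 50.2% in the 9 Gy samples. Per total count, all 14 housekeeping genes were higher with 9 Gy EVs than with sham EVs, by 0.25 (Rpl19) to 2.62 (Tubb5) on the log2 scale. Which scaling is nearer to the amount of RNA per cell was not tested.

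**Figure D3:**
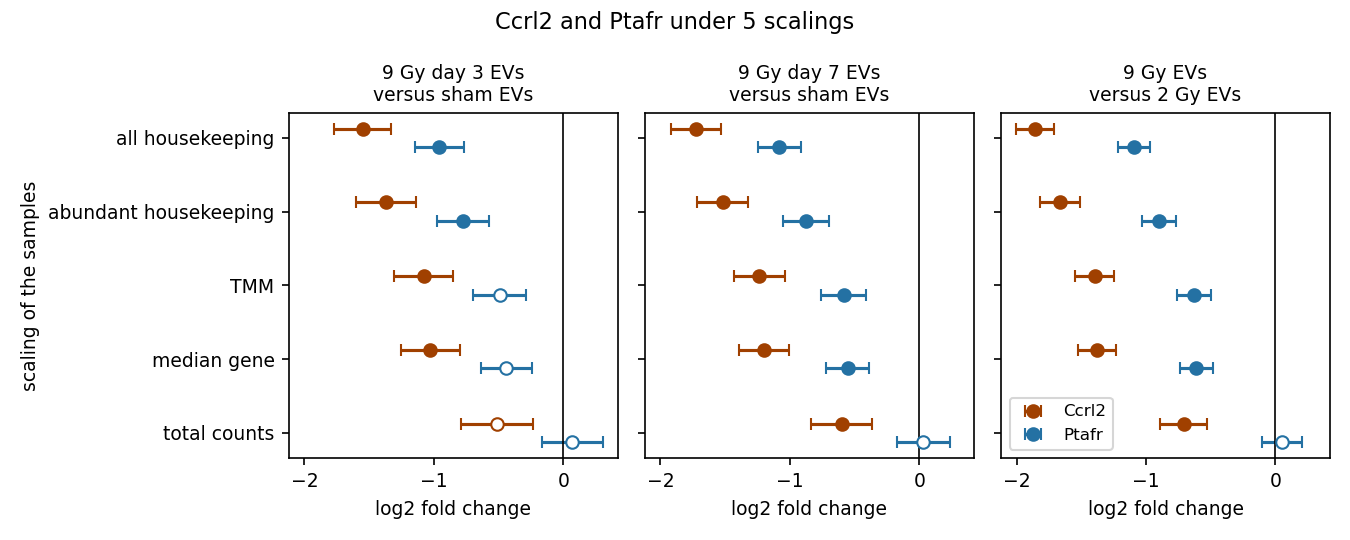
Log2 fold changes (horizontal axis) of Ccrl2 and Ptafr in the 3 comparisons of 9 Gy EVs under 5 scalings (vertical axis, the 10 abundant housekeeping genes being those with a mean of at least 100 counts), with standard errors as bars, filled points for an adjusted p under 0.05 and open points otherwise. Ccrl2 stays left of 0 throughout, from -1.86 to -0.52, whereas Ptafr reaches 0 when samples are scaled to total counts.

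The ratio of Ccrl2 to Ptafr within a sample uses no scaling. It was chosen after the values were seen, and it was lower with 9 Gy EVs. On the log2 scale it was 0.18, 0.41 and 0.27 in the sham samples, 0.59, 0.48 and 0.45 at 2 Gy day 3, and 0.32, 0.32 and 0.44 at 2 Gy day 7. It was -0.25, -0.25 and -0.42 at 9 Gy day 3 and -0.49, -0.0084 and -0.60 at 9 Gy day 7. All 6 samples given 9 Gy EVs were below all 9 others, the nearest being replicate 2 of day 7. Such separation was common among ratios of tested genes, since 38.3% of all 36046 pairs separated these 6 samples from the 9 others in either direction. Set over Ptafr, 16 of the 267 other tested genes (5.99%) were lower in all 6 and 90 were higher in all 6. The mean difference of the 6 samples given 9 Gy EVs from the 6 given 2 Gy EVs was -0.77 (two-sided exact permutation test, p = 0.00216, the smallest that 924 arrangements allow). Their difference from the 3 sham samples was -0.62 (two-sided exact permutation test, p = 0.0238, the smallest that 84 arrangements allow). With 3 samples against 3 such a test cannot go below 0.1, which it reached at each day. These tests count the day 3 and day 7 samples of a dose as independent. Same-numbered samples deviated together, however, as did some with unlike numbers. With same-numbered samples averaged over both days the differences were again -0.77 and -0.62, and the exact permutation p was 0.1 for each, the smallest that 20 arrangements allow. Without the conflicting samples the differences were -0.81 and -0.66, and the exact permutation p was 0.00952 and 0.0571, in each case the smallest that the 210 and 35 arrangements allow, so the latter test could not pass at any difference. The ratio was chosen after the values were seen, and full separation gives the smallest p possible. These p-values therefore only restate the separation. At 9 Gy day 3 the ratio rests on 18 to 21 raw counts of Ccrl2 and 24 to 25 of Ptafr per sample. A ratio within a sample shows unequal change of both genes and does not say which of them moved.

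**Figure D4:**
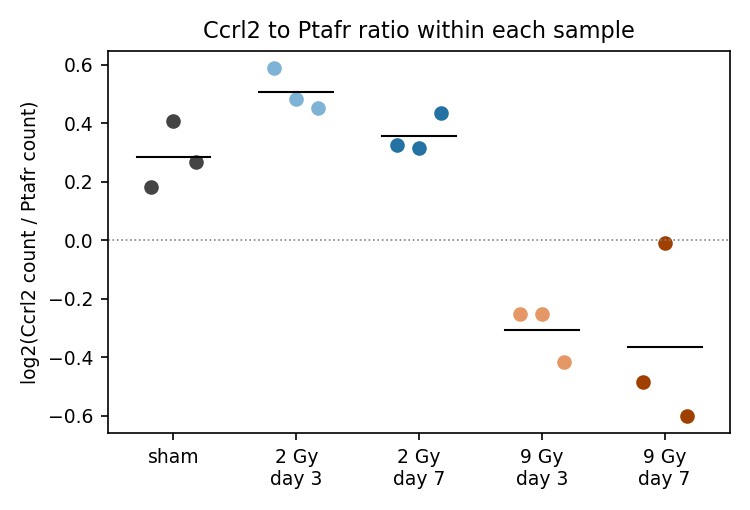
Log2 of the raw Ccrl2 count over the raw Ptafr count in each of the 15 samples by EV group, with a line at each group's mean. The samples given sham or 2 Gy EVs lie between 0.18 and 0.59 and those given 9 Gy EVs between -0.60 and -0.0084.

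Cx3cr1, the fractalkine receptor, had the highest counts of the 4 low receptor genes, and 3 of the 24 lymphocyte genes reached it in the sham group. Its raw counts were 21, 13 and 40 in the sham samples, 32, 24 and 19 at 2 Gy day 3 and 22, 15 and 19 at 2 Gy day 7. With 9 Gy EVs they were 1, 4 and 1 at day 3 and 27, 26 and 20 at day 7. The sham samples alone spanned the raw range of all groups other than 9 Gy day 3. Pooled over the samples of a group and scaled to the housekeeping mean, the ratio to sham EVs was 0.603 at 9 Gy day 7 (exact 95% interval from 0.430 to 0.845, from 73 and 74 counts) and 0.420 at 9 Gy day 3 (from 0.149 to 0.958, from 6 counts). It was 0.971 at 2 Gy day 3 (from 0.695 to 1.36) and 0.715 at 2 Gy day 7 (from 0.496 to 1.03), and the interval of the latter overlapped those of both 9 Gy groups. For 9 Gy over 2 Gy EVs it was 0.693 (from 0.518 to 0.923). These intervals cover counting error only and not the spread between samples, and the normalized samples of 9 Gy day 7 overlapped those of the sham group. The 9 Gy day 7 ratio to sham EVs came with the housekeeping scaling, since the summed raw counts were nearly equal. At 9 Gy day 3, replicates 1 and 3 were at 1, the lowest count in the table, where such an interval may not hold. In an edgeR fit without the filter on low counts, the log2 fold change of Cx3cr1 was -0.72 (interval from -1.48 to 0.042) at 9 Gy day 7 and did not pass.

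Cxcr4, the receptor for Cxcl12, had raw counts of 10, 12 and 12 in the sham samples and between 8 and 18 in the other groups apart from 9 Gy day 3, where they were 1, 1 and 3. At that level 10 of the 24 lymphocyte genes reached it in the sham group. All 3 normalized samples of 9 Gy day 7 were below the sham samples, as in 49.1% of tested genes, but the pooled ratio was 0.737 with an interval from 0.456 to 1.20. Cmklr1, the signaling receptor for chemerin, ranged from 4 to 11 raw counts outside the 9 Gy day 3 group, and Ccr2, the receptor for Ccl2, from 3 to 11. Both were at 1 in all 3 samples of 9 Gy day 3, and 1 is the lowest count in the whole table. In the sham group, 18 of the 24 lymphocyte genes reached Cmklr1 and 22 reached Ccr2, so expression of these receptors could not be told apart from the low end of the counts. The pooled ratio to sham EVs at 9 Gy day 7 was 0.528 for Cmklr1 (interval from 0.270 to 1.02) and 0.917 for Ccr2 (from 0.445 to 1.95). Summed raw counts there and in the sham group were 41 and 34 for Cxcr4. They were 19 and 22 for Cmklr1 and 21 and 14 for Ccr2. The ratios under 1 for Cxcr4 and Ccr2 thus came with the housekeeping scaling. For 9 Gy over 2 Gy EVs the ratio of Cmklr1 was 0.575 (from 0.328 to 0.980, counting error only), and its samples overlapped between the doses. All 3 normalized samples of Cmklr1 at 9 Gy day 7 (2.42 to 6.36) were below the sham samples (6.47 to 8.87), as in 49.1% of tested genes. In the edgeR fit without the filter its log2 fold change there was -0.90, with an interval from -1.67 to -0.13 and adjusted p = 0.0818 after Benjamini-Hochberg adjustment. Without the filter, 0 of these 4 genes passed edgeR's test in any of the 8 comparisons.

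Other chemoattractant receptors were as sparse. Of 31 listed, 20 had counts and 2 had a mean of at least 20, Gpr44 (a prostaglandin D2 receptor, also called Ptgdr2) and Ccrl1 (an atypical chemokine receptor, also called Ackr4). At 9 Gy day 3 they were at -0.996 and -1.004 and did not pass. Both were lower at 9 Gy day 7, Gpr44 by a log2 fold change of -1.52 and Ccrl1 by -1.28 (adjusted p = 0.000391 and 0.0034 by edgeR's quasi-likelihood test after Benjamini-Hochberg adjustment). Against 2 Gy EVs they were at -1.33 and -1.12 and passed, but Ccrl1 did not pass when scaled to the median gene (-0.64) or without the conflicting samples (-0.73). Scaled to total counts, 0 of these 2 genes passed in any of the 3 comparisons. Over all tested genes 49.1% were lower at 9 Gy day 7 and 52% against 2 Gy EVs, so 2 of 2 says little about these receptors. In the sham samples Gpr44 had only 27 to 35 raw counts and Ccrl1 29 to 71. With 9 Gy EVs Gpr44 had 3 in every day 3 sample and 8 to 23 at day 7, and Ccrl1 2 to 10 and 24 to 36. Gpr44 thus reached the mean of 20 through the sham and 2 Gy samples (26 to 44 raw counts at 2 Gy). Ccr8, next to Cx3cr1 along the genome, was at 1 in every sample.

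Of the ligands of these receptors, 14 were listed, 12 had counts and 7 were tested. Mean raw counts of the 12 ran from 5.33 for Ccl8 to 126387 for Ccl3. At 9 Gy day 3, 3 fell and 1 rose, and at 9 Gy day 7 and against 2 Gy EVs 4 fell and 1 rose, with medians over the 7 of -0.82, -1.07 and -1.24 on the log2 scale. Over all tested genes the lower shares were 41.3%, 49.1% and 52% and the medians -0.46, -0.45 and -0.45, so these counts were near the background. With the conflicting samples left out, 2 fell and 0 rose at day 3. Scaled to total counts, 1 fell and 2 rose at each day against sham EVs and 3 fell and 2 rose against 2 Gy EVs, with medians of 0.18, -0.014 and -0.13. Ccl5, a ligand of Ccr1, fell most, with a log2 fold change of -2.29 at day 3 and -2.07 at day 7 (adjusted p = 2.84e-08 and 4.96e-08 by edgeR's quasi-likelihood test after Benjamini-Hochberg adjustment), and it was lower and passed under each of the 5 scalings. Ccl9 was at -1.40 and -1.36 and Ccl3 at -0.93 and -1.12 at these days, all of which passed. Scaled to total counts neither passed against sham EVs, and the sign of Ccl3 turned at day 3, to 0.098. Ccl9 was at -0.88 at day 3 without the conflicting samples and did not pass. Ccl2, the ligand of Ccr2, was not called, at 12740 ± 2062 normalized counts in the sham group, 10938 ± 7595 in the 9 Gy day 3 group and 11812 ± 10092 in the 9 Gy day 7 group (SD, n = 3 each). Mif, which can signal through Cxcr4, was the 1 that rose, by 0.54 at day 3 and 0.41 at day 7, and it was higher and passed under each of the 5 scalings. Its size moved with them, to 1.06 and 0.93 when scaled to the median gene and 1.58 and 1.53 when scaled to total counts. At day 3 it was at 0.40 without the conflicting samples and did not pass. Fractalkine (Cx3cl1) and Cxcl12 themselves had means of 6.27 and 7.80 raw counts and were not tested.

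Among genes that act downstream of these receptors, 15 of 29 listed were tested. With 9 Gy EVs, 4 fell and 1 rose at day 3, 7 fell and 0 rose at day 7, and 6 fell and 1 rose against 2 Gy EVs. Over all tested genes 41.3%, 49.1% and 52% were lower, so falls in this list were no more common than over the panel. Against sham EVs, Src, a kinase, was at -1.23 and -1.26 at day 3 and day 7, both of which passed. Nfkbia, an inhibitor of NF-κB, was at -0.89 and -0.94, and Jak3, a kinase, at -0.94 at day 7, all of which passed. Their sign turned when scaled to total counts (0.11, 0.17 and 0.14) and none passed. Jak3 also did not pass when scaled to the median gene (-0.43) or under TMM (-0.46), nor did Nfkbia at day 3 when scaled to the median gene (-0.37). The medians were -0.43, -0.29 and -0.30, beside -0.46, -0.45 and -0.45 for all tested genes. Scaled to total counts the split of this list turned, with 0 lower and 8, 9 and 13 higher in the 3 comparisons, and Src did not pass. With the conflicting samples left out, 4 fell and 0 rose at day 3, and Src, at -1.07, did not pass. Of the 11 macrophage markers, 7 fell and 1 rose in each 9 Gy comparison, the riser being Csf1r, the receptor for macrophage colony-stimulating factor (2.29 and 1.87 against sham EVs). Among those that fell, Fcgr2b, the inhibitory IgG Fc receptor, was at -2.75 and -3.71 against sham EVs and Fcgr1, the high-affinity IgG Fc receptor, at -1.94 and -1.91. Fcgr2b was lower and passed under each of the 5 scalings, whereas Fcgr1 did not pass when scaled to total counts (-0.96 and -0.86) or at day 3 without the conflicting samples (-1.34). The medians of these markers were -1.20, -1.25 and -0.98, and the lower shares over all tested genes 41.3%, 49.1% and 52%. Without the conflicting samples, 3 fell and 1 rose at day 3 and 5 fell and 1 rose against 2 Gy EVs. Scaled to total counts, 2, 1 and 2 of them were lower and 3, 4 and 4 higher, and Csf1r rose under every scaling. The summed level of these markers was 9584 to 14052 normalized counts in the sham samples, 6078 to 8447 at 9 Gy day 3 and 6049 to 7815 at 9 Gy day 7. It moved with Ccrl2 and Ptafr. So did that of the 12 T cell markers, at 222 to 273 in the sham samples, 118 to 182 at 9 Gy day 3 and 128 to 149 at 9 Gy day 7, although only 2 of the 12 had a mean of at least 20 counts. The 4 neutrophil markers with counts, 0 of them at that mean, were at 40.6 to 50.9 in the sham samples, 29.1 to 32.4 at 9 Gy day 3 and lower still at 9 Gy day 7, with a lowest sample at 19.1 and no overlap with the sham samples. The 6 B cell markers, 1 of them at that mean, were at 67.7 to 79.3 in the sham samples, overlapped them at 9 Gy day 3 (44.3 to 80.1) and were at 39.0 to 48.3 at 9 Gy day 7. Sums of NK cell and platelet markers overlapped those of the sham samples at both days. Of all tested genes, 43.9% were below every sham sample at 9 Gy day 3 and 49.1% at 9 Gy day 7. Among the T cell markers Cd8a had the highest mean, 97.8 raw counts. Before scaling, the raw median of the 24 lymphocyte genes was 10.2 in the sham group and 8.33 at 9 Gy day 7. The part of these marker shifts in the change of the receptors was not tested. No gene of these lists passed with 2 Gy EVs against sham EVs or between days.

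Over the 15 samples, the tested gene whose log2 normalized count was most like that of Ccrl2 was Cd74, the invariant chain of MHC class II (Pearson r = 0.972). For Ptafr it was Il12b, the p40 subunit of interleukin 12 and 23 (r = 0.970). Of the 267 other tested genes, 29 had an r above 0.9 with Ccrl2 and 19 with Ptafr. These correlations are descriptions over samples that stand apart by dose and share the same housekeeping scaling. Cd74 went from 7238 ± 158 normalized counts in the sham group to 1579 ± 103 at 9 Gy day 7, and Il12b from 87.2 ± 16.1 to 4.80 ± 2.75 (SD, n = 3 each). Il12b was at 1 raw count, the lowest in the table, in all 3 samples of 9 Gy day 3 and at 4 to 13 at 9 Gy day 7. Il12b therefore passed the filter through the sham and 2 Gy samples (71 to 119 raw counts), and its r rests on values at the low end of the counts in the 9 Gy samples.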

How the data were processed

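The authors deposited raw counts of 561 genes in 15 samples, as whole numbers without control probes. No background was subtracted here, and neither whether the authors had subtracted one nor how counts under 1, the lowest value, were entered is stated. The methods name nSolver normalization, whose values were not used here. The labels and the methods differ in the number of EVs given and in the lysis reagent. Samples were grouped by title. The methods say that samples were run in triplicate and nothing says that they were separate cultures, so the p-values measure the spread between these samples, which may be technical. No samples of a group agreed within sampling noise by a chi-square test.

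Each sample was scaled by the geometric mean of its 14 housekeeping genes, relative to the average sample. Their mean raw counts ran from 6.53 (Polr1b) to 29040 (Gapdh). The 269 genes whose mean reached 20 counts entered an edgeR 4.0.16 quasi-likelihood fit in R 4.3.3 over all 5 groups, with a prior count of 0.125 and Benjamini-Hochberg adjustment over the 269 genes at a threshold of 0.05. The standard error is the absolute log2 fold change over the square root of F, and intervals are 95%. On simulated counts with log2 changes of 1.5, the procedure recovered 92.9% of 198 changed genes for 9 Gy day 3 against sham EVs. Of its calls 2.13% were false, with 198 of 269 genes changed. The simulation left the housekeeping genes unchanged and drew the directions at random, so it cannot test the scaling. Exact permutation tests and count intervals used scipy 1.17.1.

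The members, the lists and the rule for named genes (every receptor, the 3 largest passing changes of each list, and the gene most like each tested receptor) were chosen with earlier results of these data known. Genes named beyond that rule were chosen after their values were seen.

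Samples with the same replicate number deviated together between the days of a dose, but not in every pair of any other groups. Their correlations between days were 0.365 to 0.779 at 2 Gy and 0.330 to 0.717 at 9 Gy. Some unlike-numbered samples correlated as highly, such as replicate 3 of 2 Gy day 3 with replicate 2 of day 7 (0.611). At 9 Gy, replicate 1 of day 3 had 0.421 with replicate 2 of day 7. Others were negative, such as replicate 3 of 2 Gy day 3 with replicate 1 of day 7 (-0.684). The values therefore do not settle whether the number pairs samples, and the labels give no pairing. The alternatives were other scalings, filters and floors, DESeq2 1.42.0 with its own scaling, fewer groups in the fit, a replicate block, both treatments of the conflicting labels, and each sample left out in turn. Some genes that the rule names are not reported here.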

Additional observations from a re-analysis of the deposited data

How the results depend on the processing

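The calls of the receptors depended most on the scaling. Both tested receptors were lower at 9 Gy day 3 against sham EVs, and this count was 1 under median-gene scaling, TMM scaling and DESeq2 1.42.0 and 0 when scaled to total counts, where Ccrl2 was at -0.52. For 9 Gy day 7 against sham EVs and for 9 Gy against 2 Gy it was 1 when scaled to total counts. Ptafr was the one lost, at -0.44, -0.49 and -0.50 for day 3 under median-gene scaling, TMM and DESeq2, and its sign turned without a call when scaled to total counts, to 0.068, 0.031 and 0.049 in the 3 comparisons. DESeq2 used its own scaling and not the housekeeping mean, so it changed the scaling as well as the test. Of the 60 counts made under an alternative where the main count was 2, the other 54 were also 2. In the comparisons and directions with a main count of 0, all 256 were 0. In 20 fits the sign of a log2 fold change that passed nowhere differed from the value in the report. Leaving out 1 sample kept both calls in each 9 Gy comparison, with ranges against sham EVs of -1.82 to -1.30 (day 3) and -1.84 to -1.60 (day 7) for Ccrl2 and of -1.21 to -0.76 and -1.18 to -1.01 for Ptafr. With the replicate block, Ccrl2 was at -1.56 and -1.74 and Ptafr at -0.97 and -1.09 against sham EVs, and between days Ccrl2 was at -0.18 for 9 Gy and -0.12 for 2 Gy. The block changed no call of the receptors, nor did a block with only the groups compared, added after the data were seen, though over all genes the latter called 27 at 2 Gy day 7 against day 3 where the fit without a block called 0. With counts under 20 set to 20, all genes split into 86 lower and 97 higher at 9 Gy day 3 against sham EVs (111 and 30 without the floor), 87 and 0 at 9 Gy day 7 against day 3 and 73 and 0 in the interaction (0 without the floor). The ratio of Ccrl2 to Ptafr, 9 Gy minus 2 Gy, stayed between -0.83 and -0.72 with any 1 sample left out. Against sham EVs it stayed between -0.69 and -0.56, and without 1 sham sample the exact permutation p was 0.0714, the smallest that 6 samples against 2 allow. Depth limits the 9 Gy day 3 group most, where 18 to 25 raw counts carry Ccrl2 and Ptafr and the other receptors have 1 to 4.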
